A study of Mus musculus with 16 samples.

Results

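The transcriptional response to bicuculline was followed in mouse hippocampal cultures depleted of Dnmt3a1, by setting 4 Dnmt3a1-shRNA2 libraries harvested after 4 h of bicuculline against 4 Dnmt3a1-shRNA2 libraries harvested at baseline. Libraries were chosen by their labels alone. They are 8 of the 16 libraries of the series, and 17222 of the 55385 listed genes passed the filter on low counts and were tested. The other 8 libraries come from Control-shRNA cultures, 4 at baseline and 4 after 4 h of bicuculline. Their values are given only beside those of the knockdown cultures. They also entered the filter, the scaling and the estimate of spread, since all 16 libraries were fitted together. In every group, hippocampi of newborn C57Bl/6N mice were dissociated, cultured as mixed primary cells and infected with a recombinant adeno-associated virus (rAAV), in which the U6 promoter transcribes a short hairpin RNA and the chicken beta-actin promoter transcribes GFP. The control cultures therefore also carried a virus, a hairpin and GFP, and no group was left uninfected. The labels give the genotypes as 3a1sh and shControl, and the study names the knockdown hairpin Dnmt3a1-shRNA2. The U6 promoter is active in every infected cell type, only this 1 hairpin against Dnmt3a1 was sequenced, and the study describes the 4 libraries of a group as independent neuronal preparations. Whether a replicate number marks 1 preparation split over the groups is not stated.

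Bicuculline blocks GABA-A receptors, the main source of fast inhibition in the hippocampus. Without that inhibition, cultured networks fire recurrent bursts of action potentials, synaptic NMDA receptors and voltage-gated channels let calcium in, and calcium signals reach the nucleus through calmodulin-dependent kinases and the MAP kinase cascade. The first wave of transcription consists of immediate early genes, whose promoters are bound by factors already present in the resting cell, among them CREB and SRF. Many of their products are transcription factors themselves, and a later wave brings effectors that act at the synapse, secreted peptides, survival factors and inhibitors of the same signalling cascades. Dnmt3a1 is the longer product of the Dnmt3a gene and adds methyl groups to cytosine in DNA. The question put to these libraries is which genes bicuculline switches on or off when little Dnmt3a is left.

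The targeted gene was checked first, in CPM, which are read counts scaled to a common library size and corrected for library composition. Dnmt3a (ENSMUSG00000020661.15, chr12:3806007-3914443 of GRCm38) stood at 45.5, 39.4, 45.1 and 48.05 CPM in knockdown baseline replicates 1 to 4 and at 45.1, 47.8, 44.5 and 43.8 CPM in the stimulated replicates 1 to 4. All 8 values lay below the lowest of the 8 Control-shRNA libraries, which spanned 293 to 338 CPM. Within the knockdown cultures, baseline and stimulated libraries overlapped, and the difference of their mean log2 CPM was 0.03 (exact permutation test, two-sided, p = 0.83). Dnmt1, the maintenance methyltransferase, measured 57.8 ± 3.09 CPM at baseline and 51.03 ± 2.68 CPM after bicuculline. Dnmt3b, the other de novo enzyme, lay near the detection limit in both groups, with a highest library of 0.572 CPM. Gene values sum Dnmt3a1 and the shorter Dnmt3a2, so the 2 products cannot be told apart here. The 8 libraries held 28998053 to 29586355 counted read pairs, mitochondrially encoded genes took 2.73% to 5.99% of the counts at baseline and 3.58% to 6.60% after bicuculline, and the first principal component of all 16 libraries, with 50.9% of the variance, separated stimulated from baseline libraries without overlap.

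Bicuculline altered about as many genes upwards as downwards, and the rises were the larger changes. A gene was called when edgeR's quasi-likelihood test gave a Benjamini-Hochberg adjusted p under 0.05 and the absolute log2 fold change exceeded 0.5. By this rule 4436 genes were called (25.8% of those tested), 2167 of them higher (12.6%) and 2269 lower (13.2%). The adjusted p alone was passed by 7919 genes, so a gene that was not called can have missed the fold threshold only. In 6965 tested genes (40.4%) the 4 stimulated libraries did not overlap with the 4 baseline libraries, and 4025 of the called genes were among them. The median log2 fold change was 1.02 over the genes called higher and -0.76 over those called lower. A change of more than 1 on the log2 scale was reached by 1125 rising and 556 falling genes, of more than 2 by 326 and 23, and of more than 4 by 64 and 3. The balance depends on the scaling. The median of all tested genes was -0.01 after the composition correction and -0.16 when libraries were scaled by their totals only, where 67.2% of the called genes were lower in place of 51.1%. Limma on log2(TPM + 1) gave 69.4% and on log2(TPM + 0.1) 69.8%. Small falls in particular are therefore relative to that shift. Of the tested genes 904 were under the filter on low counts in the baseline libraries, and 285 of these were called higher and 5 lower. In the stimulated libraries 770 were under it, and 75 of these were called lower. Some genes were under it in each state taken alone. In the lists below, counts of members called are read against the 12.6% of all tested genes called higher and the 13.2% called lower.

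**Figure D1:**
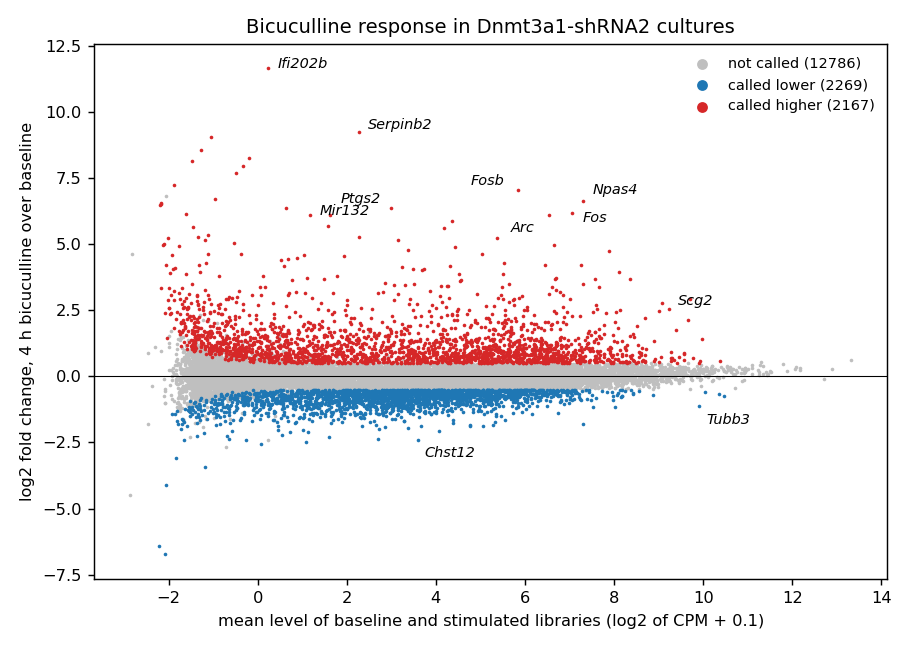
Response of 17222 tested genes to 4 h of bicuculline in Dnmt3a1-shRNA2 cultures. The x axis is the mean of baseline and stimulated levels in log2 CPM, the y axis the fitted log2 fold change, red points are the 2167 genes called higher, blue points the 2269 called lower and grey points the rest; the rises reach further from 0 than the falls.

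Immediate early transcription factors rose almost without exception: of the 20 listed factors 19 rose (95%, against 12.6% of all tested genes), 1 fell, and all 20 had non-overlapping groups (40.4% of all tested genes did). A gene can stand in several lists. The median log2 fold change of these factors was 4.05, beside -0.01 over all tested genes. Npas4, a neuronal basic helix-loop-helix factor induced by calcium, stood at 18.9, 17.2, 16.1 and 11.3 CPM in the 4 baseline libraries and at 1831, 1594, 1293 and 1591 CPM in the 4 stimulated libraries. Every stimulated library was far above every baseline library, and the log2 fold change was 6.63, standard error 0.25, adjusted p = 2.01e-12. Fos, a subunit of the AP-1 dimer, went from 14.9, 16.1, 19.2 and 11.6 CPM to 1260.0, 1276, 910.0 and 1070.5 CPM. The groups again lay far apart (6.19, standard error 0.21, adjusted p = 5.85e-13). Its relative Fosb began lower, at 4.22, 5.49, 6.57 and 3.43 CPM, and reached 635, 770.1, 679 and 528 CPM, the widest change of the list at 7.04, standard error 0.22, adjusted p = 2.12e-13.

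The remaining factors differed in baseline level and in the size of the rise. Egr1, a zinc finger factor of the SRF-dependent group, rose from 45.7 ± 9.35 to 1209 ± 199 CPM (mean ± SD, n = 4, as for the other pairs of means), and Nr4a1, an orphan nuclear receptor, from 18.01 ± 4.51 to 558 ± 52.6 CPM. Nr4a3, of the same receptor family, had the smallest rise of the list, from 192 ± 46.5 to 708 ± 140.4 CPM (1.89, standard error 0.17, adjusted p = 1.06e-07), and its baseline exceeded the stimulated level of Atf3, at 154 ± 20.9 CPM. Junb and Jun, which pair with the Fos proteins, changed by 4.21 and 2.44 on the log2 scale. Crem, whose product includes the repressor ICER, changed by 2.28. Klf10 moved the other way: it stood at 32.3, 24.000, 26.3 and 43.7 CPM at baseline and 17.1, 20.96, 19.7 and 20.1 CPM after bicuculline. Its groups did not overlap (-0.70, standard error 0.14, adjusted p = 4.34e-04), but without baseline replicate 4, its highest library, the fall was -0.50 and no longer passed the fold threshold. Among all 15 tested Kruppel-like factors, 6 rose (40%), led by Klf4 (3.19) and Klf14 (3.15), and 3 fell (20%), Klf11 (-1.03), Klf7 (-0.91) and Klf10.

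**Figure D2:**
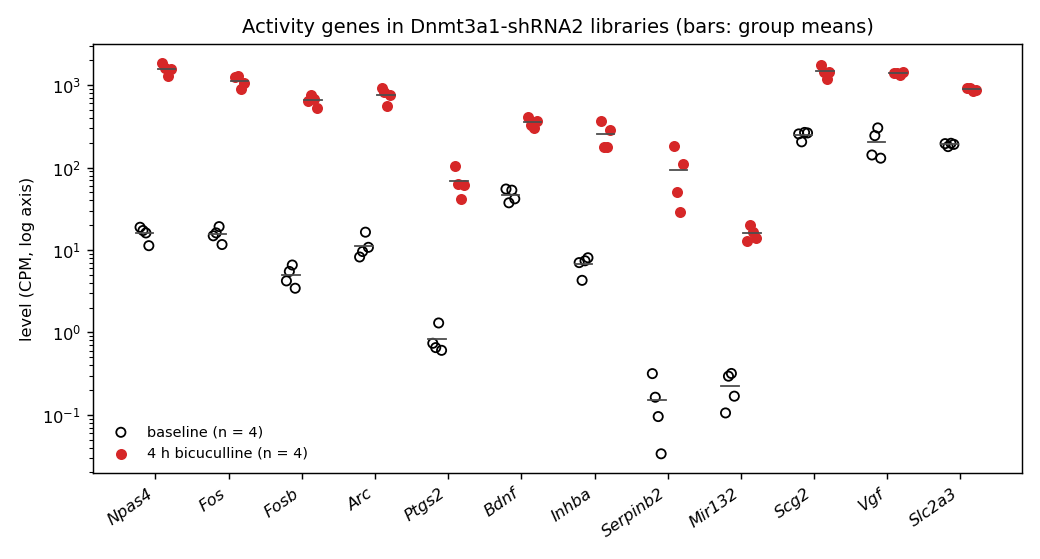
Levels of 12 activity genes in each of the 8 knockdown libraries, in CPM on a log axis. Open circles are the 4 baseline libraries and filled circles the 4 libraries after 4 h of bicuculline; in each of the 12 genes the filled circles lie above all open circles.

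Effectors that act at the synapse also rose, 17 of 20 (85.0%, against 12.6% of all tested genes) with no fall and a median log2 fold change of 2.54. Arc, whose product drives internalization of AMPA receptors, measured 8.22, 9.58, 16.4 and 10.8 CPM in the baseline libraries and 931, 821, 554 and 758 CPM in the stimulated libraries (chr15:74669083-74672570 of GRCm38). The lowest stimulated library exceeded the highest baseline library many times over, and the log2 fold change was 6.08, standard error 0.27, adjusted p = 1.27e-11. Bdnf, the neurotrophin that signals through TrkB, began higher, at 54.9, 37.4, 53.2 and 41.8 CPM, and reached 414, 327, 303 and 367 CPM (2.91, standard error 0.19, adjusted p = 1.27e-09). Homer1, whose short activity-induced form uncouples metabotropic receptors from the scaffold, went from 91.8 ± 12.1 to 1165 ± 255 CPM, where the gene value sums the long and the short form. Nptx2, a secreted pentraxin that gathers AMPA receptors, changed by 4.20, while its relative Nptx1 measured 210.2 ± 17.2 CPM and 272 ± 48.7 CPM and did not pass the rule. Ptgs2, the inducible cyclooxygenase, was nearly silent at baseline, at 0.738, 0.654, 1.30 and 0.606 CPM, and stood at 106, 63.9, 41.2 and 62.2 CPM after bicuculline. The third replicate was the highest of the baseline and the lowest of the stimulated libraries, and the log2 fold change was 6.35, standard error 0.40, adjusted p = 9.38e-10. Plk2, a kinase that destabilizes active synapses, Rgs2, which shortens signalling by Gq proteins, and Rheb, the activator of mTORC1, changed by 2.51, 2.44 and 1.47. Pim1, a serine/threonine kinase, was among the widest rises, from 2.54 ± 0.187 to 125 ± 15.6 CPM.

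Inhibitors of the cascades that carry the signal rose as well: of 18 listed inhibitors of MAP kinase and growth factor signalling, 14 rose (77.8%) and 1 fell (13 and 2 under scaling by library totals), with a median log2 fold change of 1.81. Dusp1, a nuclear phosphatase of MAP kinases, went from 13.8 ± 2.06 to 142 ± 7.59 CPM and Dusp4 from 36.8 ± 3.51 to 335 ± 30.5 CPM. Errfi1, which binds and inhibits the EGF receptor, and Spry2, a Sprouty inhibitor of Ras signalling, changed by 3.11 and 2.48. Dusp2, at 0.652 ± 0.206 CPM before and 0.362 ± 0.0680 CPM after bicuculline, was the member that fell (-0.83, standard error 0.30, adjusted p = 0.0286). It lost the call without baseline replicate 1 or 2 or stimulated replicate 1 or 2, where its log2 fold change was -0.68 to -0.78. Of 9 listed survival genes driven by nuclear calcium each was called higher, and 1 of them, Serpinb2, reached the filter only through the stimulated libraries. Inhba, the subunit of activin A, stood at 7.03, 4.28, 7.40 and 8.05 CPM at baseline and 372, 178, 176 and 285 CPM after bicuculline. The groups were widely separated (5.24, standard error 0.35, adjusted p = 1.80e-09). Gadd45b and Gadd45g, stress proteins that have also been tied to active DNA demethylation, changed by 4.63 and 3.87, and Bcl6, a transcriptional repressor, by 1.60.

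Some genes were close to silent before stimulation, so that they passed the filter on low counts only through the stimulated libraries. Serpinb2, an inhibitor of plasminogen activators, was at 0.316, 0.163, 0.0953 and 0.0337 CPM in the baseline libraries and 182, 50.8, 28.7 and 109 CPM in the stimulated libraries. Replicate 1 was the highest library in both states and the stimulated libraries differed widely among themselves, and the fitted log2 fold change was 9.23, given with no test since the gene passed the filter only because it was high after bicuculline. Ifi202b was at 0 counts in all 4 baseline libraries and had 1447 counts over the 4 stimulated libraries, at least 540-fold higher against a floor of 3 counts over the baseline group. Krt6a, a keratin, was also at 0 in every baseline library and had 240 counts after bicuculline, at least 89.6-fold higher by the same floor. Both belong to families of near-identical copies among which the quantification can divide reads, so their identity is uncertain. Gprc5a, an orphan receptor, had 2 counts at baseline and 692 after bicuculline (ratio 387, exact 95% counting interval 107 to 3204). Galr1, a receptor for the peptide galanin, had 2 and 461 (258, 71.0 to 2137), and Lce1g 2 and 559 (313, 86.2 to 2590). These intervals cover counting error only, on counts summed over the 4 libraries of a group. They are no test, since these genes passed the filter only because they were high after bicuculline. Sp7, a zinc finger factor known from bone formation, went from 0.125 ± 0.0568 to 10.6 ± 1.98 CPM.

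A microRNA locus is shown beside them. Mir132 and Mir212 lie within chr11:75173388-75173747 on the plus strand of GRCm38, inside the noncoding transcript 1700016P03Rik, and miR-132 is known as a CREB target that acts on dendrite growth. Both were chosen after their values were seen. Of 17 tested microRNA genes 5 were called higher and 1 lower, beside 12.6% and 13.2% of all tested genes. Their mature sequences, from RefSeq on GRCm38.p6, are shown with the seed (bases 2 to 8) in capitals because both 3p arms share 1 seed and so the same kind of target site.
mmu-miR-132-3p (chr11:75173723-75173744): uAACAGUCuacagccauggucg
mmu-miR-212-3p (chr11:75173443-75173464): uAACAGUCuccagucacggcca
mmu-miR-132-5p (chr11:75173686-75173707): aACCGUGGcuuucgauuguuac
mmu-miR-212-5p (chr11:75173403-75173425): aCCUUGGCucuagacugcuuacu
The 3p arms were identical at 17 of 22 positions, and the 5p seeds differed from each other and from the shared one. Mir132 stood at 0.105, 0.294, 0.318 and 0.168 CPM in the baseline libraries and at 12.7, 19.9, 16.7 and 14.1 CPM in the stimulated libraries. Mir212 gave 0.422, 0.490, 0.222 and 0.168 CPM and 16.9, 25.8, 25.98 and 20.8 CPM. The fitted log2 fold changes were 6.12 and 6.09, given with no test, and Mir132 reached the filter only through the stimulated libraries. The host 1700016P03Rik changed by 5.17 (1.42 ± 0.381 to 51.2 ± 8.75 CPM). The labels name total RNA and no selection of small RNA, so these values do not measure mature microRNA.

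Secreted peptides formed a broad group of rises: of 22 tested neuropeptides and granins (24 listed, Trh and Gal under the filter) 14 rose (63.6%, against 12.6% of all tested genes) and none fell, and the median log2 fold change was 1.12. Scg2, a granin of dense-core vesicles that is cut into secretoneurin, stood at 256, 205, 267 and 263 CPM at baseline and at 1763, 1459, 1199.6 and 1445 CPM after bicuculline. The groups were far apart (2.57, standard error 0.14, adjusted p = 1.96e-10). Vgf, another granin-like precursor, measured 142, 244, 303 and 130.03 CPM and then 1413, 1415, 1340.2 and 1442 CPM (2.78, standard error 0.21, adjusted p = 7.25e-09). Penk, the enkephalin precursor, rose from 4.60 ± 0.623 to 83.7 ± 12.7 CPM, Adcyap1, the precursor of PACAP, by 2.22 on the log2 scale, and Crh, corticotropin-releasing hormone, by 3.16 from a baseline of 0.639 ± 0.0668 CPM. Pcsk1, the convertase that cuts such precursors, went from 46.95 ± 7.42 to 525 ± 116 CPM. Peptides found in GABAergic interneurons rose by unequal amounts: Sst by 0.92, standard error 0.13, adjusted p = 1.31e-05, Npy by 0.94, standard error 0.18, adjusted p = 3.02e-04, Vip by 0.73, Tac1 by 1.34, Cort by 1.64 and Pnoc by 1.88. Cck, Chga, Chgb, Scg3 and Scg5 passed the adjusted p but not the fold threshold, with log2 fold changes of 0.44, 0.30, 0.22, 0.36 and 0.26. Over the same libraries 3 of 8 markers of GABAergic neurons rose, Gad2, Gad1 and Dlx1 (0.82, 0.73 and 0.66), and the summed level of the 8 markers was 2023 to 2341 CPM at baseline and 2804 to 3353 CPM after bicuculline. The part of these markers in the peptide values was not tested. In bulk RNA, fewer cells of a type and less RNA per cell cannot be told apart.

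Growth factors split: 15 of 28 tested members of that list rose (53.6%, 30 listed), 3 fell (10.7%), and the median was 0.69. Of these 28, Areg and 1 other reached the filter only through the stimulated libraries. Besides Inhba and Bdnf, the rises were led by Alkal2, a ligand of the receptor kinases ALK and LTK, at 7.03, 5.003, 7.05 and 4.51 CPM before and 45.01, 33.8, 34.6 and 39.5 CPM after bicuculline. Its groups did not overlap (2.69, standard error 0.22, adjusted p = 2.01e-08). Bmp2, Tgfb2 and Vegfa changed by 2.31, 1.62 and 1.37. Ntf3, the neurotrophin that signals through TrkC, fell while Bdnf rose: it measured 4.50, 3.69, 5.56 and 3.84 CPM at baseline and 1.46, 1.999, 2.67 and 1.18 CPM after bicuculline (-1.26, standard error 0.21, adjusted p = 8.37e-05). Tgfa and Vegfd fell by less (-0.64 and -0.54), and Vegfd lost its call without baseline replicate 4 (-0.44).

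Among the ionotropic receptors and the channels of synaptic and action currents few genes were called. None of the 16 listed AMPA receptor subunits and auxiliary proteins rose and 1, Cnih3, fell (-0.52, standard error 0.07, adjusted p = 4.22e-06, and -0.46 without baseline replicate 1, where it was not called), with a median of 0.08 that turned to -0.07 under scaling by library totals. Gria1, Gria2 and Gria3 differed by 0.10, -0.29 and 0.08 and did not pass, and by that scaling Gria1 and Gria3 were at -0.05 and -0.07. Among 7 NMDA receptor subunits only Grin3b was called, which reached the filter only through the stimulated libraries, at 0.149 ± 0.0781 CPM before and 0.503 ± 0.217 CPM after, while Grin1, Grin2a and Grin2b differed by 0.35, 0.21 and -0.22. Among 14 tested GABA-A receptor subunits, the targets of bicuculline, only Gabre passed (0.655 ± 0.0882 and 1.02 ± 0.156 CPM, log2 fold change 0.63), and it lost the call without baseline replicate 1 or 3 or stimulated replicate 1 or 3 (0.54 to 0.64). Under scaling by library totals Gabre was at 0.48 and not called, and 1 subunit of the list was lower. Of 12 metabotropic and kainate receptors 25.0% were called, near the 25.8% of all tested genes. Of these, 2 fell, led by Grm7 (-0.91), and Grik1 rose (0.54, and 0.49 without baseline replicate 2, where it was not called). Under scaling by library totals Grik1 was at 0.39 and not called. Grm7, a presynaptic receptor that limits release, measured 84.3, 86.7, 100.4 and 88.6 CPM at baseline and 46.6, 48.8, 51.5 and 44.6 CPM after bicuculline, with no overlap. Of 20 sodium, calcium and HCN channel genes none rose and Scn3a, Scn2b and Scn2a fell (15% of the list, against 13.2% of all tested genes; -0.79, -0.54 and -0.50). Scn2b was at -0.49 without baseline replicate 1, and Scn2a lay at the fold threshold and lost its call, at -0.44 to -0.46, without baseline replicate 1, 3 or 4 or stimulated replicate 2 or 4. Of 73 potassium channel genes 12 were higher (16.4%) and 11 lower (15.1%), near the shares of all tested genes (12.6% and 13.2%). Kcnj2 and Kcnf1 rose (1.88 and 1.92). Kcnv1, a silent subunit that changes the gating of others, went from 39.1, 27.5, 32.1 and 37.8 CPM to 8.59, 7.40, 8.95 and 7.31 CPM, 1 of the widest falls of all (-2.08, standard error 0.12, adjusted p = 3.03e-10). Under scaling by library totals 8 potassium channels were higher and 20 lower.

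At the postsynaptic density 4 of 20 scaffold genes rose (20%) and 2 fell (10%): besides Homer1 these were Dlgap2, Dlg1 and Baiap2 (1.33, 1.22 and 1.06), and Nlgn3 and Dlg3 (-0.98 and -0.54, the latter -0.49 and not called without baseline replicate 1). Nlgn3, a neuroligin that joins the postsynapse to neurexins, stood at 152, 152, 164 and 149 CPM and then at 74.3, 76.1, 85.004 and 78.5 CPM, without overlap. In the vesicle release machinery 3 of 27 genes rose (11.1%) and 1 fell (3.70%), beside 12.6% and 13.2% of all tested genes. Syt4, an activity-induced synaptotagmin, went from 386 ± 24.2 to 1699 ± 325 CPM, Slc17a6, the vesicular glutamate transporter VGLUT2, from 29.8 ± 2.07 to 86.2 ± 19.8 CPM, and Sv2c changed by 1.23, whereas Sv2b fell (-0.73). The core fusion genes Snap25, Vamp2 and Syt1 differed by 0.37, 0.24 and 0.19, passed the adjusted p and missed only the fold threshold. Of 29 tested semaphorins, plexins and neuropilins, guidance molecules and their receptors, 13.8% rose and 20.7% fell, beside 12.6% and 13.2% of all tested genes. The 4 that rose were led by Sema4c (1.78), Sema3e (1.03) and Nrp1 (1.02), and the 6 that fell by Sema4d (-1.44), with 3 higher and 8 lower under scaling by library totals. Calcium/calmodulin kinases and calcineurin genes, which carry the signal itself, gave 2 rises of 21 (9.52%) and no fall, Rcan2 (0.69) and Camk2n2 (0.62), of which Camk2n2 was at 0.47 and not called under scaling by library totals.

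**Figure D3:**
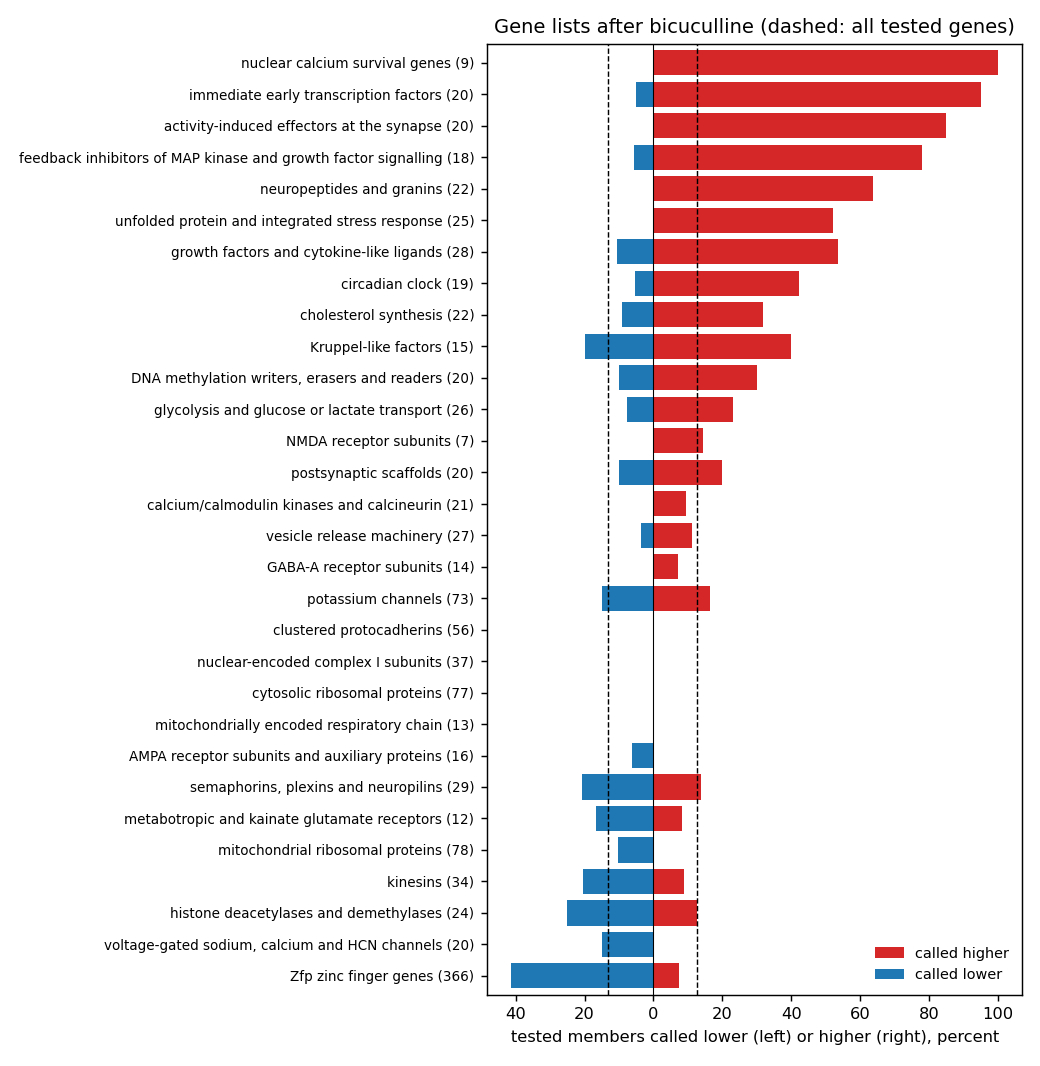
Share of tested members called higher (red, to the right) and lower (blue, to the left) after bicuculline in Dnmt3a1-shRNA2 cultures, in percent, for 30 gene lists with the number tested in brackets. The dashed lines mark the shares over all tested genes, 12.6% higher and 13.2% lower; the activity lists lie far to the right of the line and the Zfp zinc finger genes far to the left.

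Of 26 genes of glycolysis and glucose or lactate transport 6 rose (23.1%) and 2 fell (7.69%), and most glycolytic enzymes did not pass the rule. Slc2a3, the neuronal glucose transporter, stood at 195, 179.6, 197 and 191 CPM at baseline and 923, 914, 849.8 and 877 CPM after bicuculline. All stimulated libraries were well above the baseline libraries (2.22, standard error 0.06, adjusted p = 5.52e-14). Slc2a1, the other main glucose transporter, Slc16a1, the lactate carrier MCT1, and Hk2, hexokinase 2, changed by 2.18, 2.07 and 1.42. Gapdh and Pkm differed by 0.37 and 0.27 and missed only the fold threshold (adjusted p = 3.47e-05 and 0.0036). Ldha differed by 0.28 and missed both thresholds (adjusted p = 0.0608). Slc16a7, the carrier MCT2, fell (-0.71). No mitochondrially encoded gene passed in either direction (13 tested, median 0.28), and none of the 37 nuclear genes of complex I did (edgeR; 0.15, which was 0.00 under scaling by library totals). In cholesterol synthesis 7 of 22 genes rose (31.8%), led by Cyp51 (1.07) and Ebp (0.92), and 2 fell (9.09%). Dhcr7, the last reductase of the pathway, changed by -0.91, standard error 0.11, adjusted p = 3.10e-06, and Mvd by -0.51, which was not called without baseline replicate 1 or 4 or stimulated replicate 2 or 3 (-0.41 to -0.47). Under scaling by library totals 4 genes of this list were higher and 3 lower.

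Genes of the unfolded protein and integrated stress responses also rose, 13 of 25 (52.0%, against 12.6% of all tested genes) with no fall and a median of 0.75. Ppp1r15a, the GADD34 subunit that removes phosphate from eIF2alpha, measured 15.8, 23.2, 25.8 and 18.2 CPM at baseline and 147, 203, 148 and 156 CPM after bicuculline. Its groups were far apart (2.98, standard error 0.14, adjusted p = 2.27e-11). Eif2ak3, the kinase PERK, which acts in the opposite direction on eIF2alpha, changed by 1.80, Atf4 by 1.34 and Hspa5, the chaperone BiP, by 1.35. The protein disulfide isomerases Pdia3 and Pdia4 differed by -0.05 and -0.33 and did not pass. Of 19 clock genes, some of which CREB is known to drive, 8 rose (42.1%) and 1, Ciart, fell (-0.65). Per1 went from 52.8 ± 4.57 to 284 ± 21.6 CPM, Per2 from 19.7 ± 2.13 to 113 ± 16.9 CPM and Nfil3, a repressor, from 33.6 ± 2.66 to 323 ± 35.4 CPM, while Clock differed by -0.12. Under scaling by library totals 7 clock genes were higher and 4 lower.

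Among 20 genes that write, erase or read DNA methylation, 6 rose (30.0%) and 2 fell (10%, and 4 genes under scaling by library totals), with Dnmt3a itself at 0.03, which was -0.12 under scaling by library totals, and Dnmt1 at -0.18. The rises included all 3 Gadd45 genes, Tet3, Tet2 and Mbd2. The 3 Tet dioxygenases, which oxidize methylcytosine, split. Tet3 stood at 120.0, 96.4, 114 and 122 CPM at baseline and 507, 416, 383 and 409.9 CPM after bicuculline (1.92, standard error 0.13, adjusted p = 1.72e-09). Tet1 moved down, from 38.8, 21.2, 31.2 and 38.6 CPM to 16.98, 11.3, 14.1 and 14.5 CPM (-1.19, standard error 0.16, adjusted p = 1.03e-05). In both the groups did not overlap, and Tet2 changed by 1.41. Zbtb38, a reader of methylated DNA, fell (-0.63). Of 24 histone deacetylases and demethylases 3 rose (12.5%) and 6 fell (25.0%), which became 2 and 9 under scaling by library totals. Kdm6b, which removes H3K27 methylation, and Kdm7a rose (1.56 and 2.12), and Hdac7, Kdm4a and Kdm2b fell (-0.97, -0.80 and -0.76). Hdac2, a repressor of synaptic genes, fell by less, from 78.5 ± 10.9 to 50.9 ± 1.71 CPM (-0.63, standard error 0.09, adjusted p = 1.07e-05).

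The falls were smaller and spread over many genes. The widest among genes of at least 1 CPM without overlap were those of Gm38226, Dclk3, Chst12, Ccdc177, Rasl10a, Parp16, Tfap4, Zbed5, Kcnv1 and Zc3hav1l, between -2.55 and -2.04. Chst12, a sulfotransferase that acts on chondroitin, stood at 28.3, 32.2, 22.8 and 27.003 CPM at baseline and 4.55, 4.96, 6.24 and 4.84 CPM after bicuculline. The highest stimulated library was well under the lowest baseline library (-2.42, standard error 0.15, adjusted p = 5.32e-10). Dclk3, a kinase of the doublecortin-like family, went from 4.71, 4.45, 4.67 and 4.88 CPM to 0.831, 0.889, 0.855 and 0.775 CPM (-2.47, standard error 0.16, adjusted p = 1.55e-09). Rasl10a, a small GTPase, and Tfap4, a helix-loop-helix factor, changed by -2.30 and -2.12. Most of these genes were at a few CPM even at baseline, so that the falls of Parp16, Zbed5 and Zc3hav1l end below 1 CPM.

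**Figure D4:**
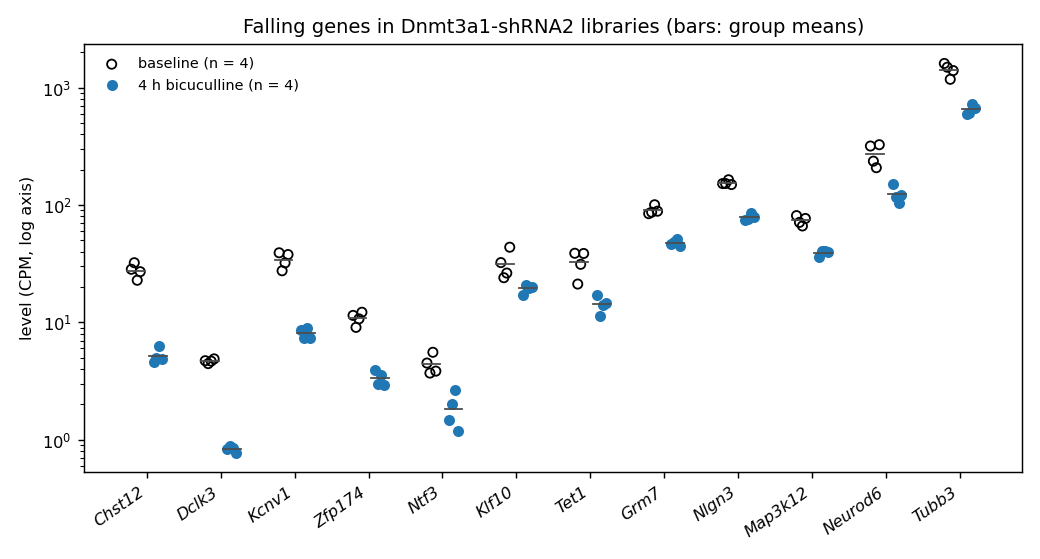
Levels of 12 genes that fell after bicuculline, in each of the 8 knockdown libraries, in CPM on a log axis. Open circles are the 4 baseline libraries and filled circles the 4 libraries after 4 h of bicuculline; in each of the 12 genes the filled circles lie below all open circles.

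The largest single class of falls was that of the Zfp genes, which code for DNA-binding zinc finger proteins, many of them repressors with a KRAB domain. Of 366 tested, 151 fell (41.3%, against 13.2% of all tested genes) and 27 rose (7.38%, against 12.6%), and the median was -0.42. Under scaling by library totals 195 were lower and 19 higher. The widest falls were those of Zfp174 (-1.70, standard error 0.14, adjusted p = 1.60e-08), Zfp39 (-1.58) and Zfp961 (-1.54). Zfp184 moved against the class, from 2.53, 2.22, 2.32 and 2.86 CPM to 35.04, 29.95, 21.03 and 21.9 CPM (3.44, standard error 0.16, adjusted p = 2.27e-11), as did Zfp516 (2.66) and Zfp948 (2.50). Mitochondrial ribosomal proteins gave 8 falls (10.3%, against 13.2% of all tested genes) and no rise of 78 tested, with a median of -0.19, and 20 falls under scaling by library totals. None of the 77 cytosolic ribosomal proteins passed in either direction (edgeR; median 0.20), nor did any of the 56 tested clustered protocadherins (edgeR; -0.05). The kinesins gave 3 rises (8.82%) and 7 falls (20.6%) of 34, led by Kif18a (2.55) and Kif26a (-1.98).

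After the composition correction, abundant transcripts were called less often than all tested genes, and few of them fell. By mean TPM, which is scaled for transcript length, 192 of 1754 genes above 100 TPM rose (10.9%) and 24 fell (1.37%). The shares over all tested genes were 12.6% and 13.2%. Between 1 and 10 TPM 740 of 5493 rose (13.5%) and 1104 fell (20.1%). The median log2 fold change above 100 TPM was 0.14, and shares by level were not counted under scaling by library totals. Tubb3, the neuronal beta-tubulin, stood at 1607, 1492, 1178 and 1397 CPM at baseline and 599, 609, 728 and 677 CPM after bicuculline. The groups did not overlap (-1.12, standard error 0.09, adjusted p = 2.74e-08). Tubb5 and Tubb2b, 2 further beta-tubulins, changed by -0.74 and -0.69. Neurod6, a helix-loop-helix factor of excitatory neurons, went from 318, 236, 208 and 326 CPM to 151, 117, 104 and 122 CPM (-1.14, standard error 0.16, adjusted p = 1.18e-05), and Wdr6, Lrrc4b, Fasn and Caprin1 changed by -0.71, -0.90, -0.59 and -0.54, of which Caprin1 was at -0.46 and not called without baseline replicate 1. The abundant rises included Sst, Stmn4, a stathmin that binds tubulin (1.05), Tpt1 (0.76), Ptma (0.59, and 0.44 under scaling by library totals, where it was not called), Scg2, Vgf and Ifrd1. Ifrd1, a transcriptional coregulator, rose the most of these, from 53.4 ± 1.73 to 681 ± 138 CPM (3.67, standard error 0.19, adjusted p = 5.72e-11).

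More genes rose than fell in several noncoding classes, and for some of them this held only after the composition correction. Among protein-coding genes 1744 of 14516 rose and 2077 fell. Among antisense genes 99 of 602 rose (16.4%) and 41 fell (6.81%), and among lincRNA genes 104 of 659 (15.8%) and 74 (11.2%). Processed transcripts gave 58 of 310 (18.7%) and 11 (3.55%), and sense-intronic genes 15 of 49 (30.6%) and 2 (4.08%). Over all tested genes 12.6% rose and 13.2% fell, so the lincRNA shares were near those of all tested genes. Of the antisense genes 23.3% were called in either direction, beside 25.8% of all tested genes. Under scaling by library totals the antisense genes gave 75 higher and 79 lower, the lincRNA genes 85 and 107, the processed transcripts 44 and 31 and the sense-intronic genes 13 and 3. Whether counting used the strand of the reads is not stated, so reads of an antisense or sense-intronic gene cannot be told apart from those of the gene it overlaps.

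Promoter letters known to bind activity-regulated factors were counted, with no test. In RefSeq windows from 250 bases before to 50 after a start site (GRCm38.p6), 12126 tested genes had 15501 windows. The full CRE, TGACGTCA, a palindrome bound by CREB, was found in 2.85% of these windows, in 4.87% of the windows of genes called higher, in 6.64% of those of genes that rose by more than 2 on the log2 scale and in 1.996% of those of genes called lower. It was in 1.79% of all 32851 windows of the table. The AP-1 motif TGANTCA, searched on both strands, was found in 5.25%, 7.42%, 10.2% and 3.71% of the same sets (7.81% of all windows), and the CArG box of SRF in 1.34%, 2.75%, 3.52% and 1.11% (1.63%). The searched motifs share no full match. Of genes that rose by more than 2, 17 held the full CRE, among them Scg2, Pcsk1, Plk2, Dusp1, Errfi1, Maff, Btg2, Areg and Ppp1r15a of the lists described here. For 3 of them, chosen after their values were seen because they stand for a secreted peptide, its convertase and a synaptic kinase, the 110 bases before the start site are shown, 5' to 3' on the gene's strand, with the CRE in capitals.
Scg2 (chr1:79440027-79440136, minus strand): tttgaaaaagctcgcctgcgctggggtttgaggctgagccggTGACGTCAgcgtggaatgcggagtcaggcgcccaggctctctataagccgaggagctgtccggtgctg
Pcsk1 (chr13:75089747-75089856, plus strand): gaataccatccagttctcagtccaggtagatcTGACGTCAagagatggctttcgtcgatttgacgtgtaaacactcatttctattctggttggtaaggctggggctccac
Plk2 (chr13:110394934-110395043, plus strand): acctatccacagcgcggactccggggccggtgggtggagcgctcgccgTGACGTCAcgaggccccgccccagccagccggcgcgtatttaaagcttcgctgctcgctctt
The first base of the CRE lies at -68, -78 and -62 from the start site, in that order. A match of letters is a description of the sequence and does not show binding in these cultures.

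The response was compared with that of the Control-shRNA cultures, measured in separate libraries. There 3765 genes were called (21.9% of those tested). In all 3236 genes were called in both responses with the same direction, 72.9% of the knockdown calls and 85.9% of the control calls, and none with opposite directions. Of the 1200 genes called in the knockdown cultures alone, 1160 had the same sign in control cultures and 646 passed the adjusted p there without reaching the fold threshold. Across the tested genes, which are not independent replicates, the log2 fold changes of both responses correlated with Pearson's r = 0.882 and Spearman's rho = 0.857. Among genes called in both, 68.4% had the larger change in knockdown cultures, and the median absolute log2 fold change was 0.96 there and 0.87 in control cultures. The difference itself was tested by the interaction term. By edgeR with the reported settings no gene passed an adjusted p under 0.05 (0.0% of those tested, smallest adjusted p 0.147). In that fit 852 genes (4.95%) had an unadjusted p under 0.05, and about that share, 0.05, is reached with no difference in any gene. Voom with limma called none and DESeq2 called 17. EdgeR called 3 without the filter on low counts (Rspo3, Map3k12 and Arpp21) and 3 with a term for the replicate number (Map3k12, Foxp1 and Arpp21). The median standard error of the interaction was 0.17 on the log2 scale, which limits what could be detected.

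**Figure D5:**
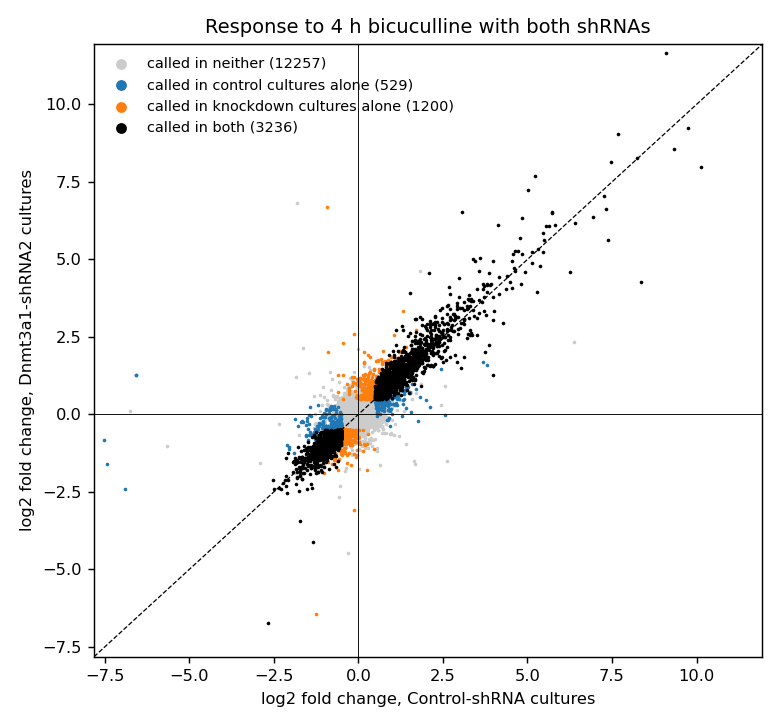
Log2 fold change after 4 h of bicuculline in Control-shRNA cultures (x axis) and in Dnmt3a1-shRNA2 cultures (y axis) for 17222 tested genes. Black points are the 3236 genes called in both, orange points the 1200 called in the knockdown cultures alone, blue points the 529 called in control cultures alone, grey points the rest, and the dashed line marks equal changes; no gene called in both lies in the quadrants of opposite sign.

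The genes with the smallest interaction p-values are described next. They were picked as the extremes of 17222 tests, so their differences do not give the size of a true difference. Arpp21 (chr9:112065091-112235938 of GRCm38), a calmodulin-regulating phosphoprotein whose locus also holds a microRNA, stood at 145, 143, 142 and 141 CPM at baseline and 567, 489, 459 and 529 CPM after bicuculline in knockdown cultures, and at 277, 260.4, 271 and 284 CPM and 713, 459.8, 551 and 525 CPM in control cultures. It rose in both, by 1.84 and 1.04, and the difference was 0.80, standard error 0.14, adjusted p = 0.147. Foxp1, a forkhead factor, rose by 1.08 and 0.53 (0.55, standard error 0.10, adjusted p = 0.147). Map3k12, the kinase DLK of the axonal stress response, stood at 81.2, 71.1, 66.2 and 76.7 CPM and 35.8, 40.3, 40.2 and 39.5 CPM in knockdown cultures, and at 141, 133, 126 and 135 CPM and 111, 103, 98.4 and 108 CPM in control cultures. It fell in knockdown cultures (-0.92), while the control value was -0.35 and did not pass the fold threshold (-0.58, standard error 0.09, adjusted p = 0.147 for the difference). Rspo3, a Wnt agonist, was -0.94 and 0.06 (-1.001, standard error 0.19, adjusted p = 0.233), and Rbm11, a splicing regulator, -1.70 and -0.66 (-1.04, standard error 0.21, adjusted p = 0.238). Mstn, the activin-type ligand myostatin, gave 0.13 and -0.85 (0.98, standard error 0.22, adjusted p = 0.394), and Trim71 1.28 and 0.28 (1.004, standard error 0.21, adjusted p = 0.238). Ino80c, a subunit of a chromatin remodelling complex, gave -0.66 and -0.16, Cc2d1a, a repressor protein, -0.49 and -0.12 (-0.50 in knockdown cultures, and called, without baseline replicate 1 or 3), and Zfp945 0.29 and -0.36. None of these genes passed the adjusted test by edgeR with the reported settings, and each was among the 17 called by DESeq2. Without stimulated control replicate 1, and otherwise with these settings, Arpp21 alone passed by edgeR.

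Responses of the genes that the study followed are set beside those in control cultures, except that of Trpc6. Those in knockdown and control cultures were 6.08 and 5.64 for Arc, 6.19 and 6.40 for Fos, and 6.63 and 7.32 for Npas4, whose difference was -0.68, standard error 0.29, adjusted p = 0.963. Nrp1, a receptor for class 3 semaphorins and VEGF, stood at 70.5, 51.1, 55.7 and 70.6 CPM at baseline and 129, 134, 116 and 124 CPM after bicuculline in knockdown cultures. It rose without overlap (1.02, standard error 0.10, adjusted p = 2.73e-07), and by 0.68 in control cultures (0.34, standard error 0.14, adjusted p = 0.962 for the difference). Crhbp, which binds corticotropin-releasing hormone, rose by 1.30, standard error 0.18, adjusted p = 1.21e-05 and in control cultures by 0.78 (0.52, standard error 0.25, adjusted p = 1.0). Npy and Alkal2 rose by 0.94 and 2.69, and by 0.66 and 2.63 in control cultures. Trpc6, a calcium-permeable channel, rose from 2.20 ± 0.987 to 3.79 ± 0.616 CPM (0.78, standard error 0.25, adjusted p = 0.0150), and lost the call without baseline replicate 1 or 4 or stimulated replicate 3 (0.63 to 0.67). It was also not called under scaling by library totals (0.62) or by limma on log2(TPM + 0.1) and log2(TPM + 1) (0.61 and 0.39). Cacng5, an auxiliary subunit of AMPA receptors, measured 19.2, 27.99, 39.6 and 24.2 CPM at baseline and 32.6, 27.2, 49.7 and 35.8 CPM after bicuculline. Its groups overlapped and it was not called in knockdown cultures (0.39, standard error 0.21, adjusted p = 0.151), except without baseline replicate 3 (0.61, adjusted p = 0.0228), whereas it was called in control cultures (0.57), and the difference was -0.18, standard error 0.30, adjusted p = 1.0, which does not show unlike responses.

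Markers of other cells that such cultures hold were followed beside these results. Of 9 general neuronal markers 2 rose, Nefl (1.39) and Nefm (0.85), and Tubb3 fell, and their summed level was 7680 to 8938 CPM at baseline and 9094 to 10681 CPM after bicuculline. Excitatory markers gave 2395 to 2645 CPM and 2290 to 2659 CPM, with 2 of 8 higher, Slc17a6 among them, and Neurod6 lower. Of 8 astrocyte markers 1 rose, Sox9 (1.08), while Gfap and Slc1a3 differed by 0.27 and 0.32 without passing, and the sums overlapped, at 702 to 1025 CPM and 855 to 1083 CPM. Oligodendrocyte-lineage markers (7 of 8 tested, with Mog lower at -0.79, and at -0.51 and not called without baseline replicate 4) gave 105 to 202 CPM and 132 to 225 CPM, and fibroblast and vessel markers (7 of 8 tested, with Col1a2 higher at 0.56, which lost its call without baseline replicate 1, 2 or 4 or stimulated replicate 3 or 4, at 0.43 to 0.58) 61.5 to 102 CPM and 82.2 to 122 CPM. Microglial markers were near 0, with 4 of 8 tested, Itgam higher (1.04) and sums of 3.00 to 4.01 CPM and 4.00 to 4.56 CPM. Of the proliferation genes Pcna rose (0.95) and Mcm2 fell (-1.02) while the division genes Cdk1 and Ccnb1 were under the filter. The labels call the samples primary hippocampal cultures, and no listed marker of neurons, excitatory neurons or GABAergic neurons was at 0 over the 8 libraries. The part of these cell types in the response was not tested.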

How the data were processed

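Total RNA of primary mouse hippocampal cultures was sequenced on a BGISeq-500, with 4 libraries for each of 4 groups assigned from the sample labels. The authors trimmed the reads with Trim Galore 0.6.4 and quantified them with kallisto on GRCm38.p6 transcripts, and deposited per library the estimated counts of each gene and its TPM (scaled for transcript length and library total). Estimated counts are raw and need not be whole, and were rounded here. Such quantification divides reads among near-identical copies, and the strand setting is not given in the sources used here. The deposited TPM values served for levels between genes and as an alternative.

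Of 55385 identifiers 55144 matched GENCODE M21 without their version, and took symbols and coordinates from it. Counts were tested with edgeR 4.0.16 in R 4.3.3 (TMM scaling, filterByExpr, quasi-likelihood fit of all 16 libraries with the group as the only term, Benjamini-Hochberg adjustment over all 17222 tested genes). CPM values use TMM library sizes. The fold threshold of 0.5 and the adjusted p threshold of 0.05 are those of the study, whose own test, voom with limma (3.58.1), and DESeq2 (1.42.0) were alternatives, as were other scalings, filters, thresholds, limma on TPM, a replicate block and leaving out each library. For the single value of Dnmt3a an exact permutation test was used. The scripts were tested on simulated counts. No pair of libraries agreed within sampling noise. The p-values rest on the spread between libraries of a group, which the study describes as independent neuronal preparations. The fit has no term for a preparation that groups may share.

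The comparison, its gene lists and the tests were chosen with earlier results of these data known. Genes are named as the 10 widest changes of each direction (at least 1 CPM over the 8 libraries, no overlap), the 8 most abundant calls in TPM of each direction, genes named by the study, at most 3 called members of each direction per list plus members with a stated role, and the 5 genes of each direction with the smallest interaction p. Names outside this rule are given as chosen after their values were seen, and a few genes the rule names are not reported here. No set test was run, and lists are described by counts, read against the share over all tested genes. Numerical depth was 28912697 to 29586355 counts per library, so that 1 CPM is about 29 counts.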

Additional observations from a re-analysis of the deposited data

Results flagged for a closer look

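In groups of 4 libraries, a library was looked at again when its gap to the nearest other exceeded Dixon's 95% critical value relative to the range of the group. Of 434 groups, 2 for each named gene and for the library totals, 18 had such a library, and chance alone gives about 5% of groups, so that this number is no more than chance would give.

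In the baseline group, replicate 2 was the library apart in 6 genes. It was the lowest library for Clock (33.7 CPM, others 46.3 to 48.3), Pcsk1 (35.8, others 50.3 to 51.1), Scg2 (205, others 256 to 267), Scn2a (218, others 363 to 375) and Syt4 (350.2, others 396 to 401), and it held the only reads of Gprc5a (0.0654 CPM, others at 0). For Pcsk1, Scg2 and Syt4 all stimulated libraries remained far above every baseline library.

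Baseline replicate 3 stood apart in Nefl (698 CPM, others 588 to 603), Rbm11 (3.27, others 4.24 to 4.32) and Sv2b (433, others 282 to 292), and baseline replicate 4 in Klf14 (0.640 CPM, others 1.11 to 1.21). Baseline replicate 1 was the lowest for Pnoc (37.8 CPM, others from 41.6 upward).

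Among the stimulated libraries, replicate 2 stood apart in Ciart (4.11 CPM, others 4.55 to 4.60), Dnmt1 (55.0, others 49.4 to 50.2) and Trim71 (7.63, others 6.02 to 6.10). Replicate 1 was the highest for Dlg3 (116 CPM, others 98.9 to 102), replicate 3 the lowest for Ptma (401 CPM, others 509 to 523), and replicate 4 the lowest for Per1 (252 CPM, others 290.2 to 298) and Efna5 (37.4 CPM, others 44.8 to 45.8). Each of these values was kept in the tests.

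The response of Zfp945 ran in opposite directions in the knockdown and control cultures. All 4 stimulated knockdown libraries (7.13 to 9.37 CPM) lay above the 4 baseline libraries (6.11 to 6.99 CPM), and all 4 stimulated control libraries (7.10 to 8.17 CPM) lay below their baseline (9.01 to 10.3 CPM). The difference was 0.65 on the log2 scale (interaction, standard error 0.13, adjusted p = 0.238 by edgeR) and did not pass.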

How the results depend on the processing

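The number of genes called changed most with the scaling and the thresholds. Against 4436 called genes, 2167 higher and 2269 lower, 3433 were lower when libraries were scaled by their totals and 3573 by limma on log2(TPM + 0.1), and 1303 were higher by limma on log2(TPM + 1). Without a fold threshold 7919 genes were called, 3582 higher and 4337 lower. With a fold threshold of 1 the numbers were 1681, 1125 and 556. With any 1 library left out, 4271 to 4560 genes were called, 2036 to 2192 of them higher and 2186 to 2374 lower. For the difference between the knockdown and control responses, edgeR with the reported settings called 0 genes and DESeq2 17. The edgeR fit without a filter called 3 (Rspo3, Map3k12 and Arpp21). The edgeR fit with the replicate block called 3 (Map3k12, Foxp1 and Arpp21, adjusted p = 0.0216, 0.0310 and 0.0149). Leaving out 1 library gave 0 to 1 (Arpp21, without stimulated control replicate 1). The cause was not tested.

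Replicate numbers are shared between groups in the labels, but same-numbered knockdown libraries deviated from their group means with correlations of 0.0631 to 0.337, not all above 0.1, so the numbers were not taken as pairs. With the replicate block 4612 genes were called. As a hint from the data, 3 of 4 stimulated and 2 of 4 baseline libraries correlated best with their own number. The third principal component of all 16 libraries, with 9.47% of the variance, also followed the number. It was positive in replicates 1 and 4 and negative in replicates 2 and 3 of every group. Whether same-numbered libraries share a preparation was not tested, and the main fit has no term for the number.

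Over 215 named genes, 96 of 3852 comparisons changed the call or the direction, in 29 genes, and calls of the report lost without 1 library are given beside those genes. The direction turned in 4 genes, none of which was called with the reported settings. Under scaling by library totals, limma on log2(TPM + 0.1) and limma on log2(TPM + 1), in that order, the log2 fold changes were -0.12, -0.12 and -0.11 for Dnmt3a, -0.046, -0.074 and -0.074 for Gria1, -0.068, -0.14 and -0.13 for Gria3, and -0.020, -0.068 and -0.060 for Mstn. With any 1 library left out, Dnmt3a lay between -0.029 and 0.064. Of 1920 counts of list members under other settings 223 moved by more than 1.5-fold.

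Values near or under 1 CPM rest on about 29 counts or fewer per library and the quantification gives no error of its own, so small changes there were not detectable at this depth.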

Other observations

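Regulators of G-protein signalling of the RGS family gave 6 rises (35.3%, against 12.6% of all tested genes) and 1 fall of 17 tested after bicuculline in the knockdown cultures. Rgs16, Rgs2 and Rgs4, which speed up the switching off of G proteins, changed by 2.58, 2.44 and 1.76 on the log2 scale, and Rgs4 reached 1241 ± 113 CPM from 366 ± 18.7 CPM (n = 4 each). Rgs19 fell (-0.67). Ephrins and Eph receptors, which signal between touching cells, gave 5 rises (23.8%) and 2 falls (9.52%) of 21, with 4 falls under scaling by library totals, with Efna5 and Efnb2 higher (1.30 and 1.06) and Efna2 and Ephb2 lower (-1.41 and -0.66). Of 10 carbohydrate sulfotransferases 3 fell (30.0%, against 13.2%) and none rose, Chst12 and, by less, Chst1 (-0.62) and Chst15 (-0.57, and -0.48 and not called without baseline replicate 3). Of 40 collagens 9 rose (22.5%) and 1 fell, which became 3 and 1 under scaling by library totals. Col10a1 went from 0.737 ± 0.193 to 17.4 ± 4.28 CPM and Col15a1 from 6.56 ± 1.72 to 1.956 ± 0.362 CPM.

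Ubiquitin-specific proteases gave 7 rises (15.2%) and 9 falls (19.6%) of 46, with Usp37 and Usp36 at 1.39 and 1.19 and Usp43 at -1.08. Chaperones of the DnaJ and Hsp families gave 12 (18.5%) and 10 (15.4%) of 65, with 15 falls under scaling by library totals, with Hspa1b, a heat-inducible chaperone, at 1.89 and Dnajc28 at -1.38. Proteasome subunits gave only the fall of Psmd5 (-0.66) among 37, and 4 falls under scaling by library totals. Solute carriers gave 29 rises and 37 falls of 260, and Tmem genes 21 and 26 of 200, shares near those over all tested genes. The numbers were 22 and 57, and 13 and 48, under scaling by library totals.

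The share of counts from mitochondrially encoded genes had its extremes in the same replicate numbers. Replicate 3 had the lowest share in each of the 4 groups (2.73% and 3.58% in the knockdown cultures, 2.80% and 3.34% in the control cultures) and replicate 1 the highest (5.99% and 6.60%, 4.75% and 5.86%), at baseline and after bicuculline in that order.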
